A study of Mus musculus with 12 samples.

Results

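The effect of miR-146a loss in obesity was read from RNA-seq of adipose tissue macrophages (ATMs) of miR-146a-/- and WT mice on HFD, 3 samples against 3, out of 12 samples in 4 groups. The members are all 6 samples whose labels give HFD, and the comparison runs across the 12119 genes that were tested of 15393 listed. Both genotypes had a C57BL6 background. The miR-146a-/- mice lacked the miRNA in the whole body, so every cell type of the tissue and not the ATMs alone carried the deletion. The mice were put on HFD at 6 weeks of age for 14 weeks and were killed at 20 weeks, and the NCD groups set beside them below had the same ages and genotypes. For each sample, cells of the visceral fat of 3 mice were pooled, and live single cells positive for CD45, CD11b and F4/80 were sorted from the stromal vascular fraction. Values are FPKM, the reads of a gene divided by its length and by the reads counted to genes, which numbered 9998868 to 11559282 in the HFD libraries. Each library is a pool and the labels do not say how the pools were made up in time or litter, so the p-values measure the spread between pools.

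miR-146a is a small RNA that pairs through its seed, bases 2 to 8, with mRNAs and lowers their translation and stability. It is induced by NF-kB downstream of Toll-like and IL-1 receptors, and its known targets in mouse include Traf6 and Irak1, the adaptor and the kinase that carry the signal from these receptors back to NF-kB, so it acts as a brake on the pathway that induces it. In the adipose tissue, resident macrophages with scavenger receptors and C-type lectins lie along vessels, and obesity adds lipid-laden macrophages that surround dying adipocytes.

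The miRNA lost in these mice is shown with its closest relative, because both carry the same seed and miR-146b remains encoded in the miR-146a-/- mice. Capitals mark the seed, and sequences and positions are from RefSeq on GRCm38.p6, where miR-146a-5p lies at chr11:43374435-43374456 on the minus strand and miR-146b-5p at chr19:46342790-46342811 on the plus strand. Among the mature mouse miRNAs of that source, 2 carry this seed.
miR-146a-5p: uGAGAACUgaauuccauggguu
miR-146b-5p: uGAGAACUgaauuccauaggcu
The miR-146a gene itself is not analysed here, so the deletion could not be checked from its own transcript.

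A seed match was a run AGTTCTC in the longest annotated 3′ UTR of a gene, on the transcript's strand, and AGTTCTCA where the base opposite the first position of the miRNA is also A, so that every longer match holds the shorter one. Of 10667 tested genes with an annotated 3′ UTR, 12.3% held the 7-base match and 4.57% the 8-base match. Traf6 held 4 of the 8-base matches and Irak1 held 2, which start at positions 40 and 56 of its 3′ UTR. They are printed as DNA of the transcript's strand with the match in capitals, together with those of Axl, Plek and Osbpl8, the genes that rose on HFD and hold an 8-base match.
Traf6 at chr2:101697945-101697973: ccgctctggtgttgAGTTCTCAtttagtt
Traf6 at chr2:101698009-101698037: ccctggaaggcttaAGTTCTCAagtactc
Traf6 at chr2:101698821-101698849: gtactttggagtctAGTTCTCAgggagcc
Traf6 at chr2:101701345-101701373: gactttgctactgcAGTTCTCAaacatgg
Irak1 at chrX:74015386-74015414: gactcagaggtcaaAGTTCTCAtgcttgg
Irak1 at chrX:74015370-74015398: ttctcatgcttggaAGTTCTCAtagtgtg
Axl at chr7:25758413-25758441: agtttagagttcaaAGTTCTCAaagatga
Plek at chr11:16973952-16973980: ttcactgaagcaagAGTTCTCAagcttta
Osbpl8 at chr10:111293225-111293240: aAGTTCTCAacattga

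Traf6 stood at 6.29, 5.94 and 6.66 FPKM in WT HFD libraries 1, 2 and 3 and at 7.51, 8.94 and 8.75 in miR-146a-/- HFD libraries 1, 2 and 3. All miR-146a-/- values lay above the WT values, but the log2 fold change of 0.36 (standard error 0.09) did not pass the test over all genes (adjusted p = 0.089, limma). It passed without replicate 1 (0.43, adjusted p = 0.0496) and with array quality weights, and in none of the 5 other fits that left out an HFD library (largest adjusted p = 0.258, without WT HFD replicate 1). Irak1 stood at 17.9, 18.3 and 16.2 FPKM in WT against 17.1, 20.5 and 19 in miR-146a-/- libraries, so the groups overlapped (log2 fold change 0.11, adjusted p = 0.53). Irak2, a related kinase with 1 8-base match and 1 further match of 7 bases only, stood at 9.76, 10.8 and 11.8 FPKM in WT against 13.9, 12.1 and 11.6 FPKM in miR-146a-/- libraries (log2 fold change 0.20, adjusted p = 0.33). The other 15 tested genes reported as miR-146a targets had log2 fold changes of -0.091 to 1.0, 12 of them above 0, with adjusted p values of 0.19 to 0.99. In all, 15 of 18 tested genes of that list lay above 0 on HFD with a median of 0.153, and no call was made among them. Of all genes 46.6% lay above 0, with a median of -0.017. Without miR-146a-/- HFD replicate 1, 13 of the 18 lay above 0 with a median of 0.143, and 1 rose. On NCD, where the miRNA was also absent, 9 lay above 0 and 9 below, with a median of -0.0152.

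Across the genes with an 8-base match the median log2 fold change on HFD was 0.00514, against -0.0226 for genes with no match. The log2 scale here and below is that of log2(FPKM + 1), which shrinks the change of genes near or under 1 FPKM. Among genes that rose on HFD, 4 of 32 with an annotated UTR held the 7-base match (12.5%) and 3 the 8-base match (9.38%). Among genes that fell, 4 of 36 held the 7-base match (11.1%) and 1 the 8-base match (2.78%). These shares stand close to those of all genes for the 7-base match, and the counts for the 8-base match are too small to read a difference from. Axl, a receptor for apoptotic cells, stood at 57.3, 57.5 and 70 FPKM in WT against 94.5, 82.1 and 89.6 in miR-146a-/- libraries (log2 fold change 0.52, adjusted p = 0.047). Plek, the pleckstrin of leukocyte signalling, stood at 217, 181 and 232 FPKM in WT against 304, 299 and 362 FPKM in miR-146a-/- libraries (0.61, adjusted p = 0.047). Osbpl8, a lipid transfer protein of the endoplasmic reticulum, stood at 33.7, 31.3 and 30.3 FPKM in WT against 40.1, 47.3 and 48.2 FPKM in miR-146a-/- libraries (0.49, adjusted p = 0.047). The groups did not overlap for these genes, and each lost its call without WT HFD replicate 1, where the adjusted p values were 0.192, 0.164 and 0.155.

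On HFD, 76 genes changed between the genotypes, which is 0.627% of the genes tested, with 34 higher (0.281%) and 42 lower (0.347%) in miR-146a-/- ATMs. Among those that rose were Spp1 and Acp5 of lipid-laden macrophages, the cytokine Il10 and the integrin Itga5, and among those that fell were C-type lectins of resident macrophages, the interferon-induced Ifit3, the complement gene C2 and immunoglobulin segments. The size of the change was 0.42 to 5.25 on the log2 scale with a median of 0.871, and 35 genes changed by 1 or more on that scale. The groups did not overlap for any of the 76, but the genes were called on these same values, so this is no separate support. Over all genes 8.51% had every miR-146a-/- value above and 11.8% below the WT values. At an unadjusted p under 0.05 there were 2124 genes. Leaving out 1 HFD library kept between 11 (without WT HFD replicate 2) and 55 (without miR-146a-/- HFD replicate 1) of the 76 calls. All 76 kept their sign in each of the 6 fits, which was bound to be so because their groups did not overlap. The calls that held in all 6 fits numbered 3 higher and 8 lower, and 8 calls held in none of them. Fitted on the 6 HFD libraries alone, with fewer degrees of freedom for the spread, 6 genes passed. For the main genes below, the largest adjusted p among the 6 fits is given with the library left out, and a gene without such a value is not thereby said to hold in all 6.

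**Figure D1:**
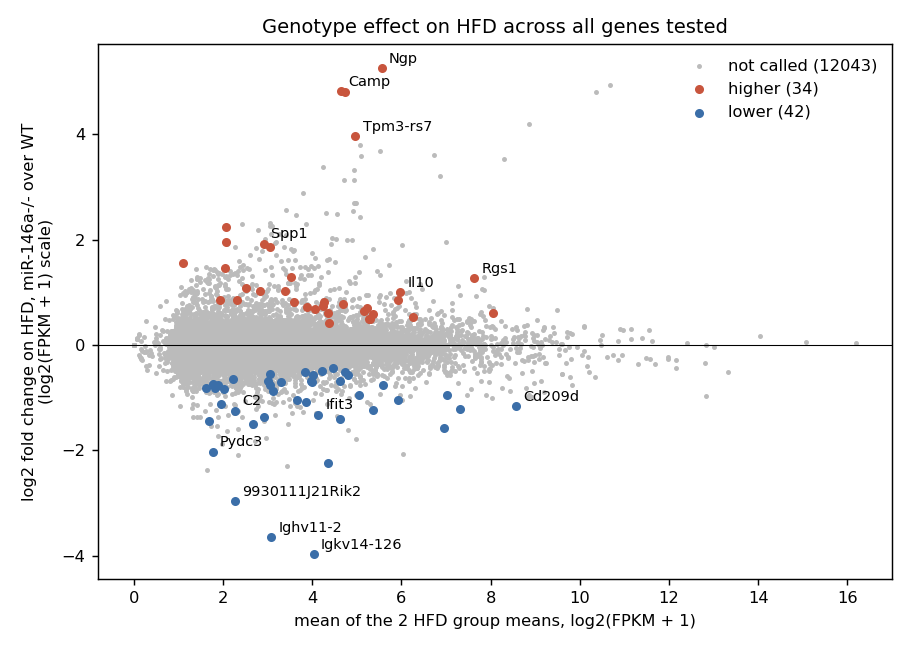
Log2 fold change on HFD (miR-146a-/- over WT, log2(FPKM + 1) scale) against the mean level on HFD for the 12119 genes tested, with one point per gene. The 34 genes that rose are red, the 42 that fell are blue, and Ngp at 5.25 and Igkv14-126 at -3.98 stand at the 2 ends among them.

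miR-146a-/- HFD replicate 1 stood apart, and this is given before the single genes because many of the values below differ most in it. The summed level of 15 neutrophil markers was 194, 147 and 195 FPKM in WT HFD libraries 1, 2 and 3 and 19609, 645 and 611 FPKM in miR-146a-/- HFD libraries 1, 2 and 3. Replicates 2 and 3 thus also lay above every WT library, but far below replicate 1, and on NCD the sums were 213 to 264 FPKM in WT and 721 to 1775 FPKM in miR-146a-/- libraries. Neutrophils carry CD11b and little F4/80, so the sort gate should exclude most of them. The summed level of 12 macrophage markers was 12119 to 13142 FPKM in WT and 11828 to 12568 FPKM in miR-146a-/- libraries, but Lyz2, the lysozyme gene that neutrophils also express, made up 6715 to 7699.8 FPKM of it. Summed without Lyz2, a choice made after the values were seen, the other 11 markers gave 5404, 5567 and 5696 FPKM in WT and 4164, 5309 and 5055 FPKM in miR-146a-/- libraries, so each miR-146a-/- library lay below WT and replicate 1 most. There were 334, 566 and 539 FPKM of Emr1, which encodes F4/80, in the 3 miR-146a-/- libraries against 492, 558 and 543 in WT. For 48 of the 76 genes called, replicate 1 was the miR-146a-/- library farthest from the WT mean. Without it 72 genes were higher (0.594% of those tested) and 41 lower (0.338%), 28 and 27 of them among the calls above. In sorted bulk cells, more cells of a type and more RNA per cell cannot be told apart.

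**Figure D2:**
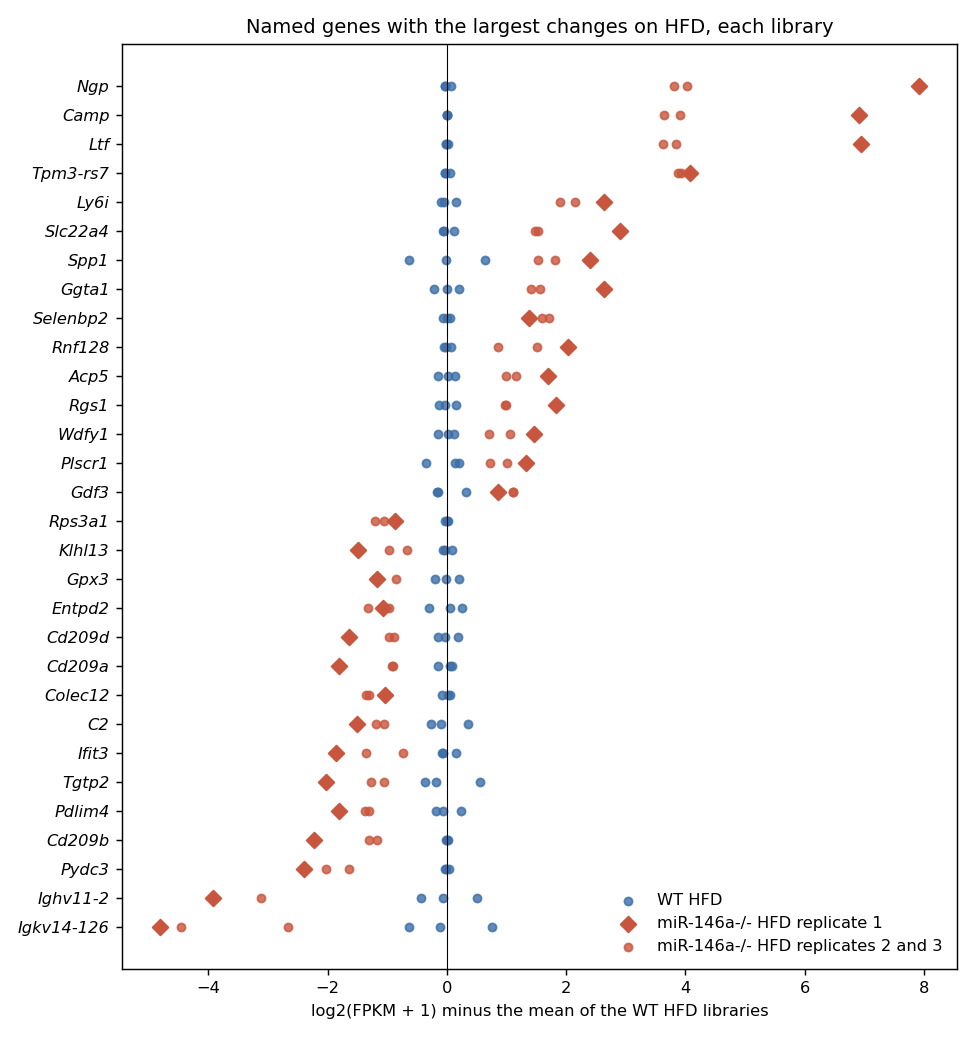
Each HFD library's log2(FPKM + 1), less the mean of the WT HFD libraries, for the 15 higher and 15 lower named genes with the largest changes (blue circles, WT; red diamonds, miR-146a-/- replicate 1; red circles, replicates 2 and 3). For Ngp, Camp and Ltf replicate 1 lies far beyond the others, whereas for Tpm3-rs7, Selenbp2, Colec12 and Rps3a1 the 3 miR-146a-/- libraries lie together.

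Genes of the lipid-associated state that macrophages take on in obese fat stood higher in miR-146a-/- ATMs. Of 28 tested genes of this list 21 lay above 0 with a median log2 fold change of 0.365 (0.419 without replicate 1), 2 rose, none fell and 26 did not pass the test. For 13 of the 28 (46.4%) every miR-146a-/- value lay above the WT values, against 8.51% of all genes, and for none below. With coordinates of GRCm38 here and below, Spp1 (ENSMUSG00000029304, chromosome 5, 104435118 to 104441050), which encodes the secreted phosphoprotein osteopontin, stood at 0.960, 3.73 and 2 FPKM in WT against 15, 7.77 and 9.69 FPKM in miR-146a-/- libraries. Its group means were 2.23 ± 1.40 and 10.8 ± 3.77 FPKM (SD, n = 3), and its log2 fold change was 1.92 (standard error 0.36, adjusted p = 0.0496). Acp5 (ENSMUSG00000001348, chromosome 9, 22126731 to 22135746), the tartrate-resistant acid phosphatase of lysosomes, stood at 4.91, 5.66 and 6.20 FPKM in WT against 20.2, 13.6 and 12.1 FPKM in miR-146a-/- libraries (log2 fold change 1.28, adjusted p = 0.025). Both were highest in replicate 1, and all miR-146a-/- values lay above the WT values. Spp1 did not pass without replicate 1 (adjusted p = 0.092) while Acp5 did (adjusted p = 0.021). Without WT HFD replicate 1 neither passed, with adjusted p values of 0.186 and 0.134, and of the 6 fits that left out an HFD library Spp1 held in 1 and Acp5 in 3.

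Other genes of this state did not pass although their values did not overlap. Cd9, a tetraspanin that marks these cells, stood at 7.22, 6.87 and 7 FPKM in WT against 39.6, 20.4 and 11.4 FPKM in miR-146a-/- libraries (log2 fold change 1.46, adjusted p = 0.088). Gpnmb, a glycoprotein of lipid-laden macrophages, stood at 1.25, 4.5 and 2.08 FPKM in WT against 6.62, 22 and 11.8 FPKM in miR-146a-/- libraries (1.96, adjusted p = 0.092), with replicate 2 and not replicate 1 the highest. The increase in Cd9 was largest in replicate 1 and that in Gpnmb was not, and the part of neutrophil transcripts in either was not tested. Trem2, a lipid receptor of these cells, stood at 9.13, 12.6 and 7.40 FPKM in WT against 12.7, 17 and 13.3 FPKM in miR-146a-/- libraries (0.54, adjusted p = 0.18). The coat protein of lipid droplets, Plin2, stood at 128, 137 and 156 FPKM in WT against 433, 225 and 258 FPKM in miR-146a-/- libraries (1.06, adjusted p = 0.072). The lysosomal acid lipase Lipa stood at 152, 157 and 168 FPKM in WT against 207, 208 and 209 FPKM in miR-146a-/- libraries (0.39, adjusted p = 0.0546, and 0.046 without replicate 1). Lpl, the lipoprotein lipase, overlapped between the groups at 108, 113 and 94.3 FPKM in WT against 78.6, 167 and 125 FPKM in miR-146a-/- libraries.

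Genes of resident macrophages stood lower. Of 30 tested genes of this list 29 lay below 0 with a median of -0.619 (-0.39 without replicate 1), 4 fell, none rose and 26 did not pass. For 21 of the 30 (70.0%) every miR-146a-/- value lay below the WT values, against 11.8% of all genes. The 4 that fell are pattern recognition receptors. Colec12 (ENSMUSG00000036103, chromosome 18, 9707648 to 9877995), a collectin with a scavenger function, stood at 57.3, 53.3 and 58.8 FPKM in WT against 27.1, 22.3 and 21.5 FPKM in miR-146a-/- libraries. Its means were 56.5 ± 2.87 and 23.6 ± 3.03 FPKM (SD, n = 3), the log2 fold change was -1.23 (standard error 0.14, adjusted p = 0.0057), and it passed in all 6 fits that left out an HFD library. All miR-146a-/- values were under the WT values, and replicate 1, rich in neutrophil transcripts, was not the lowest of them. Colec12 overlaps the gene model Gm7497 on its own strand, which may share its reads.

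The C-type lectins Cd209a, Cd209b and Cd209d, mouse relatives of DC-SIGN that bind sugars of microbes, fell together. Cd209d (ENSMUSG00000031495, chromosome 8, 3871827 to 3878555) stood at 503, 585 and 466 FPKM in WT against 165, 279 and 262 FPKM in miR-146a-/- libraries (log2 fold change -1.17, adjusted p = 0.047). Cd209b stood at 182, 181 and 185 FPKM in WT against 38.1, 72.9 and 80.2 FPKM in miR-146a-/- libraries (-1.57, adjusted p = 0.022). Cd209a stood at 234, 228 and 198 FPKM in WT against 61.8, 117 and 115 FPKM in miR-146a-/- libraries (-1.22, adjusted p = 0.04). The reads of these similar genes may be shared among copies, and the summed reads of the 7 listed copies Cd209a to Cd209g, scaled to the reads of each library (CPM), were 2373, 2540.1 and 2329 CPM in WT and 745, 1356 and 1358 CPM in miR-146a-/- libraries, a log2 ratio of -1.07 on HFD and 0.03 on NCD. Without replicate 1 the 3 lectins still passed, with log2 fold changes of -0.93, -1.24 and -0.92, and without WT HFD replicate 1 they did not, with adjusted p values of 0.176, 0.109 and 0.164. The other 26 genes of the list did not pass, and without replicate 1 there were 5 lower calls. Cd163, the haemoglobin scavenger receptor, stood at 406, 367 and 375 FPKM in WT against 153, 258 and 257 FPKM in miR-146a-/- libraries (-0.82, adjusted p = 0.07), and it passed without replicate 1 (-0.57, adjusted p = 0.026). Retnla, a secreted product of alternatively activated cells, stood at 9581, 10986 and 7908 FPKM in WT against 2899, 6477 and 5989.6 FPKM in miR-146a-/- libraries (-0.96, adjusted p = 0.11). Both were lowest in replicate 1, with replicates 2 and 3 close to each other. Folr2, a folate receptor of resident macrophages, stood at 1043, 1199 and 1086 FPKM in WT against 408, 858 and 806 FPKM in miR-146a-/- libraries (-0.75, adjusted p = 0.17). Timd4, a phosphatidylserine receptor, overlapped between the genotypes on HFD at 53.6, 49.9 and 39 FPKM in WT against 40.5, 49.5 and 40.6 FPKM in miR-146a-/- libraries.

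Genes of inflammation lay above 0 in most lists, with few calls. Of 19 tested NF-kB subunits and NF-kB-induced feedback genes 18 lay above 0 (median 0.369, and 0.499 without replicate 1), 1 rose and 18 did not pass. The 1 that rose was Bcl2a1b (ENSMUSG00000089929, chromosome 9, 89199209 to 89207827), an NF-kB-induced inhibitor of apoptosis, at 37.6, 39.5 and 49.1 FPKM in WT against 71.6, 67.6 and 92.9 FPKM in miR-146a-/- libraries (log2 fold change 0.86, adjusted p = 0.0464). It overlaps Mthfs on the same strand, an enzyme of folate metabolism that was also called (0.73, adjusted p = 0.047, and 0.191 without WT HFD replicate 1), and it has near-identical copies, so the reads of these genes cannot be assigned with certainty. Tnip1, a feedback inhibitor of NF-kB, stood at 6.5, 5.16 and 7.52 FPKM in WT against 29.4, 13.7 and 12.8 FPKM in miR-146a-/- libraries (1.32, adjusted p = 0.0536). Its WT and miR-146a-/- values were well apart and replicate 1 was far above the other miR-146a-/- libraries. Without replicate 1 Tnip1 passed (0.96, adjusted p = 0.014), and 3 genes of the list rose. The NF-kB subunit gene Nfkb2 stood at 28.6, 24.7 and 31.7 FPKM in WT against 42.5, 35.8 and 39.3 FPKM in miR-146a-/- libraries (0.46, adjusted p = 0.073). None of the 30 tested genes of IL-1 receptor and TLR signalling passed (20 above 0, median 0.124), and 1 passed without replicate 1. Without WT HFD replicate 1 the adjusted p of Bcl2a1b was 0.191.

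Of 19 tested cytokines 16 lay above 0 with a median of 0.465 (0.394 without replicate 1), 1 rose and 18 did not pass. Il10 (ENSMUSG00000016529, chromosome 1, 131019845 to 131024974), an anti-inflammatory cytokine of macrophages, stood at 42.1, 39 and 39.2 FPKM in WT against 61.1, 86.3 and 102 FPKM in miR-146a-/- libraries. The WT libraries lay close together and replicate 1, with the most neutrophil transcripts, had the lowest Il10 of the miR-146a-/- libraries. The means were 40.1 ± 1.75 and 83.1 ± 20.6 FPKM (SD, n = 3), and their log2 difference was 1.00 (standard error 0.16, adjusted p = 0.033), or 1.21 without replicate 1 (adjusted p = 0.001). It held in 2 of the 6 fits and did not pass without WT HFD replicate 1 (adjusted p = 0.132). Il1b, the fever-inducing cytokine cleaved by the inflammasome, stood at 87.5, 84.3 and 109 FPKM in WT against 292, 131 and 220.0 FPKM in miR-146a-/- libraries (1.12, adjusted p = 0.066). Il1a stood at 12.3, 10.3 and 14 FPKM in WT against 18, 18.6 and 34.4 FPKM in miR-146a-/- libraries (0.85, adjusted p = 0.089). Tnf and Il6, the cytokines most often measured in obese fat, overlapped between the groups. Tnf stood at 43.6, 45.9 and 74.4 FPKM in WT against 52.4, 70.5 and 139 FPKM in miR-146a-/- libraries. Il6 stood at 47.4, 29.2 and 40.4 FPKM in WT against 22.6, 31 and 42.3 FPKM in miR-146a-/- libraries. Of 23 tested chemokines 14 lay above 0 with a median of 0.279 and none passed, whereas without replicate 1 19 lay above 0 with a median of 0.443 and 2 rose. The neutrophil attractant Cxcl2 stood at 531, 481 and 646 FPKM in WT against 738, 812 and 1119 in miR-146a-/- libraries (0.67, adjusted p = 0.081, and 0.80 with adjusted p = 0.037 without replicate 1). Its relative Cxcl1 stood at 112, 83.4 and 162 FPKM in WT against 118, 337 and 568 FPKM in miR-146a-/- libraries (1.29, adjusted p = 0.2), and without replicate 1 it rose by 1.92 (adjusted p = 0.021).

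Integrins and adhesion genes had the highest median of the macrophage and pathway lists apart from neutrophil genes, at 0.592. Of 21 tested genes 20 lay above 0. Without replicate 1 this rank was lost, with a median of 0.453 against 0.499 for the NF-kB list. The fibronectin receptor subunit Itga5 (ENSMUSG00000000555, chromosome 15, 103344289 to 103366763) rose, at 8.31, 6.39 and 8.56 FPKM in WT against 15.8, 13.1 and 13.8 FPKM in miR-146a-/- libraries (log2 fold change 0.81, adjusted p = 0.022), and 20 genes of the list did not pass. Itga5 overlaps the small RNA gene Mir6963 on its own strand. Cd44, a hyaluronan receptor, stood at 47.6, 54.3 and 46.2 FPKM in WT against 142, 75.4 and 73.3 FPKM in miR-146a-/- libraries (0.89, adjusted p = 0.081, and 0.019 without replicate 1). Of genes outside the lists, Rgs1 (ENSMUSG00000026358, chromosome 1, 144243972 to 144249242), which dampens chemokine receptor signals, stood at 102, 125 and 110.2 FPKM in WT against 399.9, 222 and 224 FPKM in miR-146a-/- libraries (1.27, adjusted p = 0.036). The adhesion molecule Cadm1 stood at 1.77, 1.53 and 1.80 FPKM in WT against 4.15, 3.97 and 3.5 FPKM in miR-146a-/- libraries (0.85, adjusted p = 0.0076). Gdf3, a TGF-beta family ligand made by ATMs, rose from 5.96 ± 1.38 to 13 ± 1.43 FPKM (SD, n = 3, adjusted p = 0.042). Basp1, a membrane-associated signalling protein, stood at 15.8, 18.9 and 19.4 FPKM in WT against 31.4, 31.4 and 31.6 FPKM in miR-146a-/- libraries (0.77, adjusted p = 0.0076) and was among the 3 higher genes that held in all 6 fits. The others of this paragraph that were called lost the call in at least 1 fit, with a largest adjusted p of 0.0607 for Itga5, 0.164 for Rgs1 and 0.181 for Gdf3 without WT HFD replicate 1 and of 0.0502 for Cadm1 without WT HFD replicate 2.

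Interferon-stimulated genes stood lower on HFD and higher on NCD in miR-146a-/- ATMs. On HFD 34 of 38 tested genes lay below 0 with a median of -0.349 (-0.225 without replicate 1), and on NCD 37 of 38 lay above 0 with a median of 0.335, while no gene of the list was called on NCD. For 17 of the 38 (44.7%) every miR-146a-/- HFD value lay below the WT values, against 11.8% of all genes. In the test over all genes 1 fell, 1 rose and 36 did not pass. Ifit3 (ENSMUSG00000074896, chromosome 19, 34583531 to 34588731), an antiviral protein that binds foreign RNA complexes, stood at 22.5, 22.2 and 26.2 FPKM in WT against 5.77, 13.8 and 8.55 FPKM in miR-146a-/- libraries on HFD. Its log2 fold change was -1.32 (standard error 0.24, adjusted p = 0.0464), and on NCD it stood at 11.9, 10.4 and 8.92 FPKM in WT against 13.5, 17.9 and 18.2 FPKM in miR-146a-/- libraries (0.62, adjusted p = 0.69). Plscr1, an interferon-induced scramblase of membrane lipids, went the other way on HFD, with 4.10, 2.64 and 4.37 FPKM in WT against 10.6, 6.70 and 8.36 FPKM in miR-146a-/- libraries (1.02, adjusted p = 0.0477). The difference between the diets had an unadjusted p under 0.05 for 30 of the 38 genes, beside 1481 of the 12119 genes tested, and an adjusted p under 0.05 for none. Without WT HFD replicate 1 the adjusted p on HFD was 0.164 for Ifit3 and 0.164 for Plscr1, and Plscr1 also missed the threshold without replicate 1 (0.066).

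Among the other interferon genes, Mx1, an antiviral GTPase, stood at 17, 15.2 and 13.8 FPKM in WT against 5.28, 9.94 and 9.21 FPKM in miR-146a-/- libraries on HFD (-0.87, adjusted p = 0.07). Isg15, a ubiquitin-like modifier, stood at 13, 12.2 and 12 FPKM in WT against 2.48, 8.35 and 6.87 FPKM in miR-146a-/- libraries (-1.08, adjusted p = 0.13). Ifit1 stood at 13.9, 9.91 and 9.75 FPKM in WT against 3.69, 7.56 and 5.33 FPKM in miR-146a-/- libraries (-0.93, adjusted p = 0.073). All miR-146a-/- values of these genes lay below the WT values, with the lowest in replicate 1. Of 13 tested interferon-inducible GTPases 11 lay below 0 (median -0.389, and -0.159 without replicate 1) and 1 fell. This was Tgtp2, at 3.02, 2.51 and 5.68 FPKM in WT against 0.121, 1.18 and 0.884 FPKM in miR-146a-/- libraries (-1.45, adjusted p = 0.047, 0.164 without WT HFD replicate 1 and 0.061 with limma voom on the recovered reads). Its near-identical copy Tgtp1 stood at 0.791 to 1.40 CPM in WT and 1.87 to 4.33 in miR-146a-/- libraries, so that the sum of both was 9.66, 8.60 and 18.1 CPM in WT and 2.23, 7.70 and 6.93 in miR-146a-/- libraries, with a log2 ratio of -1.11 for the sum and -2.36 for Tgtp2 alone.

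Complement genes also stood lower, with 15 of 21 below 0 and a median of -0.323 (-0.207 without replicate 1). C2 (ENSMUSG00000024371, chromosome 17, 34862604 to 34898265), the protease of the classical and lectin pathways, fell from 4.54, 5.21 and 7.52 FPKM in WT to 1.34, 1.92 and 2.21 FPKM in miR-146a-/- libraries (log2 fold change -1.25, standard error 0.19, adjusted p = 0.023). It overlaps another gene model on its own strand, which may share its reads, and it did not pass without WT HFD replicate 2 (adjusted p = 0.0795). The other 20 genes of the list did not pass. Genes of MHC class II presentation lay below 0 for 10 of 14 with a median of -0.238, which turned to 0.141 without replicate 1, and none passed. The median over 19 genes of alternative activation also changed sign, from -0.297 to 0.178 without replicate 1.

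Metabolic lists held few calls. Of 28 tested NRF2 targets and antioxidant genes 24 lay above 0 with a median of 0.395 (0.17 without replicate 1) and 1 rose. Srxn1, the sulfiredoxin that restores oxidised peroxiredoxins, stood at 13.8, 13.3 and 12 FPKM in WT against 19.9, 20.2 and 28.5 FPKM in miR-146a-/- libraries (0.75, adjusted p = 0.047, and 0.164 without WT HFD replicate 1). Txnrd1, a thioredoxin reductase, stood at 25.5, 21.7 and 28.2 FPKM in WT against 35.7, 35.6 and 47.4 FPKM in miR-146a-/- libraries (0.63, adjusted p = 0.0544, and 0.0428 without replicate 1). Gpx3, a secreted glutathione peroxidase, went the other way, from 18.7 ± 2.82 to 8.36 ± 1.31 FPKM (SD, n = 3, log2 fold change -1.07, adjusted p = 0.047), and passed in none of the 6 fits that left out an HFD library (largest adjusted p = 0.191, without WT HFD replicate 1). No gene passed among 20 of glycolysis (16 above 0, median 0.166, and 0.000571 without replicate 1), 20 of the hypoxia response (17 above 0, median 0.234, and 0.146), 48 of oxidative phosphorylation (32 above 0, median 0.0319, and -0.0338) and 29 of PI3K, AKT and mTOR signalling (18 above 0, median 0.0616, and 0.000289). The kinase gene Mtor itself stood at 6.54, 6.99 and 7.13 FPKM in WT against 6.42, 6.12 and 6.92 FPKM in miR-146a-/- libraries, with overlapping groups. Lists of lipid droplet turnover (18 genes, median 0.315, and 0.115 without replicate 1), fatty acid oxidation (20 genes, 0.0654, and 0.0271), cholesterol synthesis (20 genes, -0.0498, and 0.0126) and lysosomes (36 genes, 0.00101, and 0.0544) also held no call, but without replicate 1 there was 1 higher call in the lipid droplet list and 2 in the lysosome list.

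**Figure D3:**
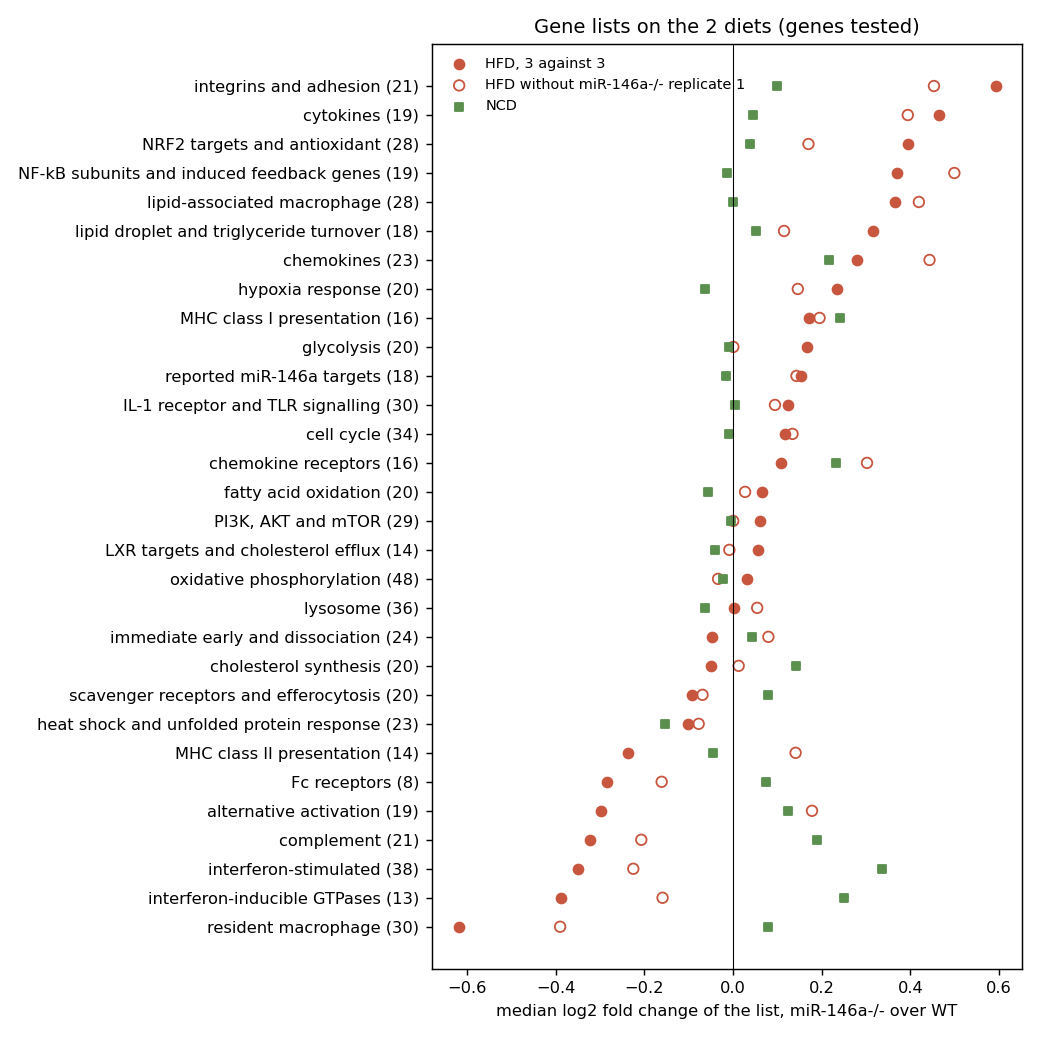
Median log2 fold change of each pathway and state list (miR-146a-/- over WT) on HFD with all 3 libraries a group (filled red), on HFD without miR-146a-/- replicate 1 (open red) and on NCD (green squares), with the number of genes tested in brackets and the 2 neutrophil lists and the cell type marker lists left out. Of the lists plotted, with all 3 libraries a group the resident macrophage list is lowest on HFD at -0.619 and the integrin list highest at 0.592. Without replicate 1 the NF-kB list is highest at 0.499. The interferon-stimulated list lies at -0.349 on HFD and 0.335 on NCD.

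Several genes outside the lists fell. Hpgd, which degrades prostaglandins, stood at 157, 159.9 and 189 FPKM in WT against 72.4, 98.2 and 92.6 FPKM in miR-146a-/- libraries (-0.94, adjusted p = 0.036). Entpd2, an enzyme that splits extracellular ATP, stood at 5.24, 3.26 and 4.42 FPKM in WT against 1.51, 1.10 and 1.67 FPKM in miR-146a-/- libraries (-1.12, adjusted p = 0.0471). It overlaps Npdc1 on its own strand, so reads may be shared. Klhl13, an adaptor of a ubiquitin ligase, stood at 16.8, 15.4 and 15 FPKM in WT against 4.97, 7.55 and 9.57 FPKM in miR-146a-/- libraries (-1.04, adjusted p = 0.04). The gene listed as 1810011O10Rik, now named Tcim, stood at 39.4, 38.3 and 26.6 FPKM in WT against 13.2, 13 and 11.1 FPKM in miR-146a-/- libraries (-1.40, adjusted p = 0.0035) and passed in all 6 fits, with a log2 fold change of -0.09 on NCD. Among those that rose, Ggta1, a galactosyltransferase that makes the alpha-gal sugar, stood at 1.92, 2.91 and 2.38 FPKM in WT against 19.9, 9 and 7.95 FPKM in miR-146a-/- libraries (1.87, adjusted p = 0.033). Rnf128, a ubiquitin ligase, stood at 1.19, 1.06 and 1.01 FPKM in WT against 7.54, 4.97 and 2.78 FPKM in miR-146a-/- libraries (1.47, adjusted p = 0.04). Slc22a4, a transporter of organic cations, stood at 0.482, 0.687 and 0.509 FPKM in WT against 10.6, 3.32 and 3.47 FPKM in miR-146a-/- libraries (1.96, adjusted p = 0.04). Rnf128 and Slc22a4 were again highest in replicate 1, but every miR-146a-/- value exceeded every WT value. Ccrn4l, now named Noct, a phosphatase of NADP(H) with a 7-base seed match, stood at 2.64, 2.16 and 2.82 FPKM in WT against 5.33, 5.28 and 5.59 FPKM in miR-146a-/- libraries (0.86, adjusted p = 0.017). Without WT HFD replicate 1 the adjusted p values were 0.132 for Hpgd, 0.192 for Entpd2, 0.17 for Klhl13, 0.155 for Ggta1, 0.155 for Rnf128 and 0.164 for Slc22a4, and without WT HFD replicate 2 the value was 0.0757 for Ccrn4l. With limma voom Slc22a4 had an adjusted p of 0.079.

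The remaining 27 calls, 9 higher and 18 lower, were mostly small. Ly6i, of a family of surface proteins of myeloid cells, stood at 0.600, 0.400 and 0.342 FPKM in WT against 8.02, 5.42 and 4.38 FPKM in miR-146a-/- libraries (2.23, adjusted p = 0.0499) and held in none of the 6 fits, with 0.183 without WT HFD replicate 1, nor with limma voom (0.076). Of transcription factors, Ets2 rose from 31.7 ± 2.72 to 48.3 ± 4.93 FPKM (SD, n = 3, adjusted p = 0.037), whereas Hlx, a homeobox gene of blood cells, fell from 11.1 ± 0.943 to 6.48 ± 1.34 FPKM (adjusted p = 0.0464). Of receptors, Ryk, a receptor for Wnt ligands, fell from 8.85 ± 0.321 to 5.19 ± 1.24 FPKM (adjusted p = 0.047), and Htr1b, a serotonin receptor, from 2.90 ± 0.101 to 1.21 ± 0.186 FPKM (adjusted p = 0.047). The lysosomal protease gene Ctsf fell from 32.3 ± 4.30 to 21.5 ± 2.34 FPKM (adjusted p = 0.0477). Without WT HFD replicate 1 these 5 had adjusted p values of 0.16, 0.186, 0.164, 0.191 and 0.155. The others that rose were Glipr1, Stap1, Mir22hg, Tmed5, Gtf2b, March7 and Gm15832, with log2 fold changes between 0.42 for March7 and 0.82 for Gm15832. Those that fell were G530011O06Rik, Gm15726, Sgce, A930018M24Rik, Zfp105, Snora24, Fndc4, Slc18b1, Akr1c13, Abhd14a, Pigh, Snapin, Trappc5 and Armc8, between -2.24 for G530011O06Rik and -0.49 for Armc8. Each of these 21 held in at most 3 of the 6 fits that left out an HFD library, with largest adjusted p values between 0.0858 for G530011O06Rik and 0.192 for Snapin. Several overlap other genes on their strand or are small RNAs, and Gm15832 and Mir22hg share bases with Rnf149 and Tlcd2, so their reads may be shared.

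The neutrophil granule genes Ngp, Camp and Ltf had the largest increases among the genes called. Ngp stood at 0, 0.0721 and 0 FPKM in WT against 248, 13.3 and 15.7 FPKM in miR-146a-/- libraries (5.25, adjusted p = 0.0464). Ltf, which encodes lactoferrin, stood at 0.0641, 0.0320 and 0.0365 FPKM in WT against 128, 11.9 and 14 FPKM in miR-146a-/- libraries (4.81, adjusted p = 0.033). Camp, an antimicrobial peptide, was listed at 0 in the 3 WT libraries and at 119, 11.5 and 14.1 FPKM in miR-146a-/- libraries (adjusted p = 0.028). Replicates 2 and 3 were close to each other and replicate 1 was far above them. The calls of Ngp, Ltf and Camp did not hold with limma voom on the recovered reads, with adjusted p values of 0.61, 0.48 and 0.4, and they were lost without WT HFD replicate 1 (0.17, 0.144 and 0.132). Without miR-146a-/- replicate 1 they held (0.0039, 0.0013 and 9.8e-04). On NCD they also stood higher in miR-146a-/- ATMs, with log2 fold changes of 5.14, 4.39 and 5.06, of which Camp passed (adjusted p = 0.039). S100a9, a calprotectin subunit of neutrophils and monocytes, stood at 28.1, 25 and 25.7 FPKM in WT against 9191, 252 and 243 FPKM in miR-146a-/- HFD libraries and did not pass (adjusted p = 0.088), but passed without replicate 1 (0.0073). Of 15 granule genes 9 were tested, and all 9 lay above 0, as did 16 of 17 of mature neutrophils. The medians were 3.8 and 2.01. Without replicate 1, 7 of 9 and 15 of 17 lay above 0, with medians of 1.91 and 0.735. Ngp, Camp, Ltf and Lcn2 reached the filter of 1 FPKM only through miR-146a-/- libraries, so that they lay above 0 was fixed by the filter. The mean of Lcn2 was 0.14 FPKM in WT HFD and 0.355 FPKM in WT NCD libraries. The count of 9 and the median of 3.8, which is the value of Lcn2, rest in part on these genes. The granule list also holds Lyz2, at 0.00716.

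Of the other cell types, monocyte markers summed to 424 to 444 FPKM in WT and 4256, 545 and 490.2 FPKM in miR-146a-/- HFD libraries 1, 2 and 3, with no marker called. Chil3, which the neutrophil granule list also holds, made up 2730.3, 26.2 and 18.8 FPKM of these miR-146a-/- sums. Of 12 monocyte markers 10 lay above 0, while Ccr2 and Fn1 had log2 fold changes of -0.03 and -0.08. Dendritic cell markers, which include Cd209a, summed to 371 to 412 FPKM in WT and 217 to 286 in miR-146a-/- libraries. Of 11 tested dendritic cell markers 7 lay above 0 and 4 below, with a median of 0.0297, and Cd209a was the 1 called. Erythroid markers summed to 18.8 to 43.0 FPKM and 45.3 to 263 FPKM, again with replicate 1 highest, and endothelial markers to 8.94 to 10.4 and 12.6 to 23.6 FPKM. The endothelial sum includes Pecam1, which the adhesion list also holds. Pecam1 stood at 0.988, 1.59 and 1.45 FPKM in WT against 19, 4 and 3.35 FPKM in miR-146a-/- libraries. Of 6 tested endothelial markers 3 lay above 0 and 3 below, with a median of 0.0281. Fibroblast and preadipocyte markers summed to 466 to 873 FPKM in WT and 260.1 to 523 FPKM in miR-146a-/- libraries, which overlap, and 1 of 14, Mfap5, a microfibril protein, fell (-0.82, adjusted p = 0.047, and 0.191 without WT HFD replicate 1). The sums of mast cell, eosinophil, B cell, plasma cell, T cell, NK cell, adipocyte and mesothelial markers overlapped between the genotypes. No listed marker was at 0 in all 6 HFD libraries. The part of these cells in the changes of other genes was not tested beyond the values without replicate 1.

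**Figure D4:**
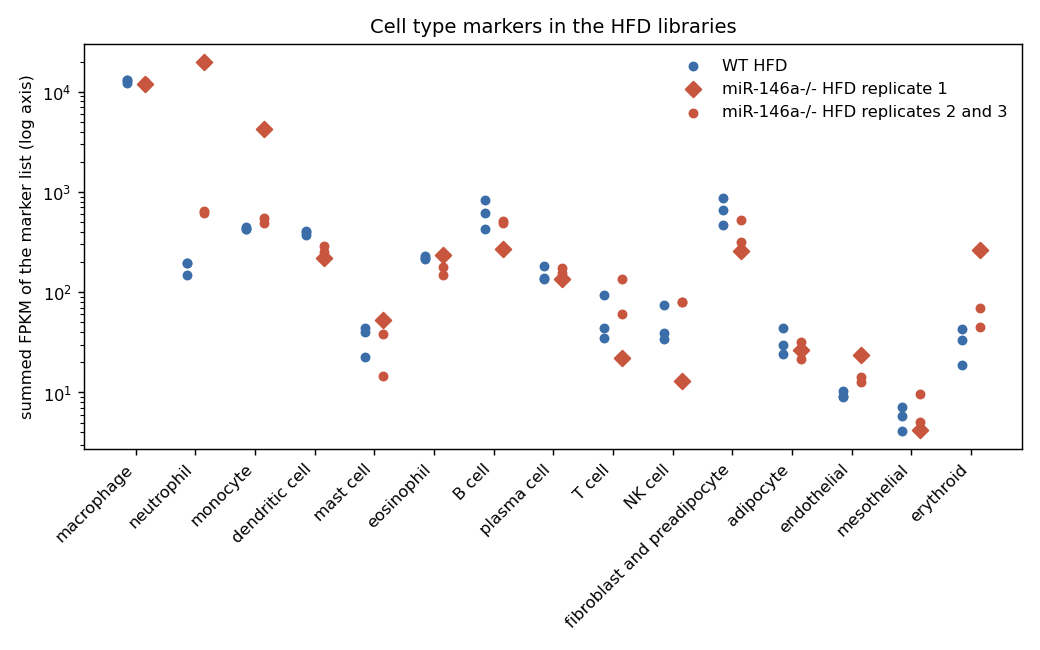
Summed FPKM of each marker list (log axis) in each HFD library (blue circles, WT; red diamonds, miR-146a-/- replicate 1; red circles, replicates 2 and 3). Neutrophil markers reach 19609 FPKM in replicate 1 against 147 to 195 FPKM in WT, and macrophage markers lie between 11828 and 13142 FPKM in all 6 libraries, of which Lyz2, also expressed by neutrophils, makes up 6715 to 7699.8 FPKM.

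On the log2(FPKM + 1) scale, which shrinks the change of low genes, the genes that fell most were immunoglobulin segments. Ighv11-2 stood at 13.4, 20.4 and 10.2 FPKM in WT against 0, 0.735 and 0 FPKM in miR-146a-/- libraries (-3.65, adjusted p = 0.0098). Igkv14-126 stood at 24.9, 46.2 and 17 FPKM in WT against 0, 3.43 and 0.273 FPKM in miR-146a-/- libraries (-3.98, adjusted p = 0.0464). These are a heavy and a light chain segment that B-1 cells of mouse are known to pair. The constant region genes did not pass. Ighm stood at 472, 329 and 427 FPKM in WT against 173, 314 and 332 FPKM in miR-146a-/- libraries (adjusted p = 0.29). Igkc stood at 325, 77.1 and 149 FPKM in WT against 77.6, 159 and 134 FPKM in miR-146a-/- libraries (adjusted p = 0.72), with overlapping groups. The summed B cell markers were 426 to 833 FPKM in WT and 268 to 514 FPKM in miR-146a-/- libraries, which also overlap. Neither segment passed with limma voom on the recovered reads (0.23 and 0.36). Ighv11-2 did not pass without WT HFD replicate 2 (0.0538) and Igkv14-126 did not pass without WT HFD replicate 1 (0.164).

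The same comparison on NCD shares no library with that on HFD, but both come from the same fit and share its estimate of the spread. The calls on the 2 diets are therefore not fully independent. On NCD 15 genes were called (0.124% of those tested), of which 10 were also called on HFD. These are 13.2% of the HFD calls and 66.7% of the NCD calls, and all 10 had the same sign on both diets. The genes that rose on both diets were Tpm3-rs7, Selenbp2, Wdfy1 and Camp, and those that fell were 9930111J21Rik2, Pydc3, Pdlim4, Rps3a1, Tpm3 and Ide. Tpm3-rs7 stood at 2.71, 2.71 and 2.90 FPKM in WT against 62.7, 56.2 and 54.6 FPKM in miR-146a-/- libraries on HFD (3.96, adjusted p = 4.2e-10). The actin-binding tropomyosin gene Tpm3 stood at 44.5, 45.6 and 38.7 FPKM in WT against 21, 23.3 and 20.5 FPKM in miR-146a-/- libraries (-0.96, adjusted p = 8.2e-04). They are near-identical copies, and their summed reads were 276, 283 and 242 CPM in WT and 259.5, 259.9 and 240.0 CPM in miR-146a-/- libraries (log2 ratio -0.08), so both calls are uncertain. Selenbp2, a selenium-binding protein, was near 0 in WT at 0.0387, 0.116 and 0.0881 FPKM and stood at 1.81, 2.55 and 2.25 FPKM in miR-146a-/- libraries (1.56, adjusted p = 5.1e-04). On NCD its WT values were 0.042, 0.0842 and 0.0411 FPKM. Selenbp2 thus reached the filter of 1 FPKM only through miR-146a-/- libraries, and its direction was fixed by the filter.

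9930111J21Rik2 (ENSMUSG00000069892, chromosome 11, 49015874 to 49051242), which the naming rule leaves out as a clone name, fell to near 0, at 7.94, 7.69 and 6.98 FPKM in WT against 0.0254, 0.0863 and 0.178 FPKM in miR-146a-/- libraries on HFD (-2.96, adjusted p = 1.7e-07) and with a log2 fold change of -2.75 on NCD. It overlaps Olfr56 on the other strand, and whether counting used strand is not given. Its reads were not summed with those of similar genes, so a shift of reads between copies was not tested. Pydc3, of the PYHIN family of interferon-induced DNA sensors, stood at 4.31, 4.39 and 4.59 FPKM in WT against 0.0339, 0.329 and 0.732 FPKM in miR-146a-/- libraries on HFD (-2.02, adjusted p = 5.1e-04) and had -1.21 on NCD. The sum of Pydc3 and its copy Pydc4 had a log2 ratio of -1.22 on HFD and 0.06 on NCD, so the NCD fall of Pydc3 is uncertain. 9930111J21Rik2 and Pydc3 were under 1 FPKM in each miR-146a-/- HFD library, not in replicate 1 alone. They were also under 1 FPKM in each miR-146a-/- NCD library. Both genes thus reached the filter of 1 FPKM only through WT libraries, and their direction was fixed by the filter. The ribosomal protein gene Rps3a1 stood at 81.9, 81.5 and 79.5 FPKM in WT against 43.9, 38.5 and 34.5 FPKM in miR-146a-/- libraries (-1.04, adjusted p = 5.1e-04) and had -1.23 on NCD. It overlaps a small RNA gene on its strand. Ide, the insulin-degrading enzyme, stood at 19, 21.1 and 15.8 FPKM in WT against 12.3, 10.5 and 10.1 FPKM in miR-146a-/- libraries (-0.71, adjusted p = 0.022) and had -0.78 on NCD, and did not pass on HFD without WT HFD replicate 1 (0.132). Pdlim4, an actin-associated protein, stood at 7.21, 7.88 and 10 FPKM in WT against 1.64, 2.57 and 2.74 FPKM in miR-146a-/- libraries (-1.50, adjusted p = 0.0024) with -1.14 on NCD, and Wdfy1, an endosomal adaptor of TLR3 and TLR4, at 2.95, 2.68 and 2.27 FPKM in WT against 9.02, 6.57 and 4.88 FPKM in miR-146a-/- libraries (1.08, adjusted p = 0.028, and 0.105 without WT HFD replicate 1) with 1.08 on NCD.

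Of the genes called, several lie near the miR-146a locus on chromosome 11. Of 248 tested genes within 20 Mb of the miR-146a locus 8 were called on HFD (3.23%, against 0.627% of all genes), with 7 lower and 1 higher. Neighbouring alleles are bred along with a deletion, and the design cannot tell them apart from it. The 8 are 9930111J21Rik2 at 5.64 Mb, Tgtp2 at 5.68 Mb, Tbc1d9b at 6.76 Mb, Slc22a4 at 10.6 Mb, Pdlim4 at 10.7 Mb, Rapgef6 at 11.1 Mb, Gpx3 at 11.5 Mb and Sptbn1 at 13.1 Mb from the locus, of which 9930111J21Rik2 and Pdlim4 were also called on NCD. Tbc1d9b, a gene of membrane traffic, stood at 30.4, 27.5 and 29.9 FPKM in WT against 16.1, 18.4 and 19 FPKM in miR-146a-/- libraries (-0.69, adjusted p = 0.0067) and passed in all 6 fits, whereas without WT HFD replicate 1 Rapgef6 (0.132) and Sptbn1 (0.191) did not pass.

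For no HFD call was the effect shown to differ from that on NCD. Of the 34 genes that rose on HFD 26 lay above 0 on NCD, with a median log2 fold change of 0.159 there, and of the 42 that fell 31 lay below 0, with a median of -0.256. The difference between the diets was called for 0 of the 12119 genes (0%), with a smallest adjusted p of 0.159 from limma, although 1481 genes had an unadjusted p under 0.05, and limma voom on the recovered reads also called 0. Array quality weights, which gave replicate 1 a weight of 0.157, called 42. Among those with an unadjusted p under 0.05 were 55 of the 76 genes called on HFD, which were chosen for a large HFD effect and so lean towards a difference. Spp1, for which the HFD effect was 1.92, stood at 8.85, 4.81 and 5.66 FPKM in WT and 8.18, 4.10 and 4.77 in miR-146a-/- libraries on NCD (-0.17), and Colec12 had -0.17 on NCD against -1.23 on HFD. The median of the lipid-associated list on NCD was -0.000787 with 13 of 28 genes above 0, and that of the resident list was 0.0784 with 21 of 30 above 0.

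**Figure D5:**
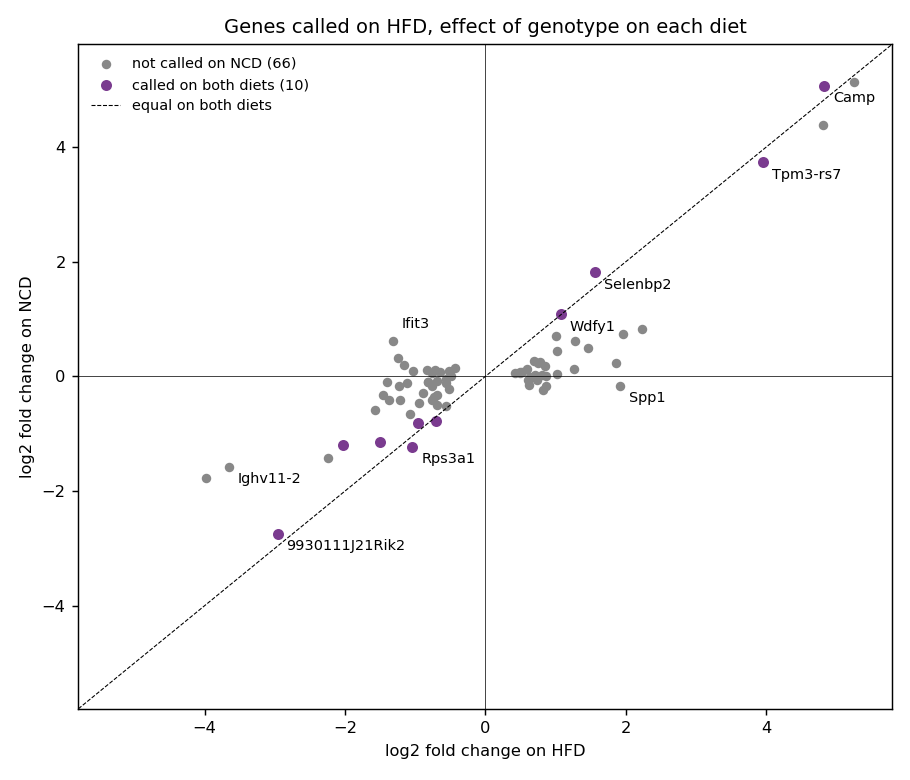
Log2 fold change on NCD against that on HFD (miR-146a-/- over WT) for the 76 genes called on HFD, with the 10 called on both diets in purple and a dashed line where the effects are equal. Tpm3-rs7, 9930111J21Rik2 and Selenbp2 lie near the line, whereas Ifit3 and Spp1 lie on opposite sides of 0 on the 2 diets.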

How the data were processed

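RNA of the sorted cells was made into libraries with a stranded TruSeq kit after Ribo-Zero Gold depletion and read as 50 bases from one end on a HiSeq. The authors deposited FPKM per gene, with coordinates of mm10 (GRCm38). The submitters' processing notes name Novoalign and DESeq2, without versions or roles, and whether counting used strand is not given in the sources used here. All 184716 values came out as whole reads within 1e-06, which gave each library's depth.

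The main test was limma 3.58.1 (R 4.3.3) on log2(FPKM + 1) of the 12119 genes whose mean over 12 libraries reached 1 FPKM, fitted as 4 group means with a mean-variance trend and robust moderation. Calls needed a Benjamini-Hochberg adjusted p under 0.05, two-sided. The fit was tested on simulated data. The alternatives were another pseudocount, filter, scaling or variance model, array weights, a replicate block, limma voom on the recovered reads and leaving out each library, and only the macrophage marker sum without Lyz2 was added after seeing the data.

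Members and gene lists were chosen with earlier results of these data known. The naming rule took the 15 called genes with the largest changes in each direction whose groups did not overlap, leaving out clone and model names, up to 4 per list by smallest adjusted p, up to 3 per marker list by highest mean and the reported miR-146a targets. The other called genes and well-known genes named beside them were chosen after their values were seen. Lists were described by counts and medians, with no set test. Columns of the NCD groups entered the fit and the comparison between diets. Coordinates and 3′ UTRs were read from the GRCm38 annotation and genome, and miRNAs from RefSeq. The labels give replicate numbers but no shared animals, litter or day. The result of 1 gene is not reported here.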

Additional observations from a re-analysis of the deposited data

Results flagged for a closer look

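For 6 of the genes described above, every miR-146a-/- library lay on one side of the WT libraries on HFD and on the other side on NCD. None of these differences passed after adjustment over all genes by limma. The effect on HFD minus that on NCD was -1.94 on the log2 scale for Ifit3 (unadjusted p = 1.4e-04, adjusted p = 0.16) and -1.62 for Ifit1 (unadjusted p = 1.8e-04, adjusted p = 0.17), both interferon-induced antiviral genes. For Il1b it was 1.44 (unadjusted p = 0.0014, adjusted p = 0.19). For Txnrd1, the thioredoxin reductase, it was 0.85 (adjusted p = 0.18). For the unnamed transcript Gm15832 it was 1.06 (adjusted p = 0.18), and for Sptbn1, a spectrin gene of chromosome 11, it was -0.58 (adjusted p = 0.17). Groups of 3 were too small for a search for single outlying samples within a group.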

How the results depend on the processing

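The count of HFD calls was 76 as reported, 48 with quantile normalization, 44 with no trend and no robust estimate, 121 with limma voom on recovered reads, 6 when only the HFD groups were fitted and 594 with array quality weights, which gave miR-146a-/- HFD replicate 1 a weight of 0.157. Leaving out 1 library gave 12 (WT HFD replicate 2) to 113 calls (miR-146a-/- HFD replicate 1). The count was 75 with a pseudocount of 0.1, 51 with no filter, 80 where the mean had to reach 5 FPKM and 91 with median-ratio scaling, and the cause of the differences was not tested. On NCD the count of 15 became 57 when only the NCD groups were fitted and 66 with array quality weights, and leaving out 1 library gave 5 (WT NCD replicate 1 or miR-146a-/- NCD replicate 3) to 54 (miR-146a-/- HFD replicate 1). The count of genes differing between the diets, 0 as reported, became 42 with array quality weights, and 0 to 7 when 1 library was left out, with 7 without miR-146a-/- HFD replicate 2.

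The replicate block gave 95 HFD calls and 15 on NCD. The deviations of same-numbered HFD libraries had correlations of -0.05, -0.04 and 0.10 and those of NCD libraries 0.04, 0.03 and -0.02, so the numbers gave no pairing.

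Over 112 genes named, 2446 single-gene values were recomputed, of which 1639 kept their direction and side of the threshold, 738 lost the call, 61 gained it and 8 changed sign, all 8 of genes not called. Array quality weights turned Emr1 to 0.08. Leaving out 1 library gave -0.32 to 0.06 for Emr1, -0.08 to 0.45 for Lpl, -0.89 to 0.14 for Igkc, -0.05 to 0.17 for Tlcd2 and -0.04 to 0.05 for Lyz2, with the sign changing without miR-146a-/- HFD replicate 1 for Emr1 and Lyz2, without replicate 2 of that group for Lpl and Tlcd2, and without WT HFD replicate 1 for Igkc, Tlcd2 and Lyz2. With 9998868 to 11559282 reads a library, genes under 1 FPKM were not tested.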
